A study of Homo sapiens with 16 samples.

Results

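Transcripts of 9 enzymes of the mevalonate pathway were followed in Molm14 cells treated with an inhibitor of DOT1L, an inhibitor of EZH2 or both. The members were the table rows whose Ensembl IDs map to ACAT2, HMGCS1, MVK, PMVK, MVD, IDI1, FDPS, FDFT1 and GGPS1, which are 9 of 22445 gene IDs. The rule itself goes by name and holds no measured value, but the pathway was chosen with earlier results of these data known. All 9 passed the filter on low values. The list does not hold every enzyme of the route. Molm14 is a human acute myeloid leukaemia line with a rearrangement of KMT2A, so all groups share that fusion and the background of 1 line. Cells in iDOT1L received EPZ5676, which blocks the histone H3K79 methyltransferase DOT1L, at 0.16 uM. Cells in iEZH2 received GSK126, which blocks EZH2, the H3K27 methyltransferase of the Polycomb repressive complex, at 0.3 uM. Cells in Combo received EPZ5676 at 0.16 uM with GSK126 at 0.3 uM, and cells in DMSO, the solvent used as vehicle, received neither compound. Treatment ran for 7 days, with medium and compounds renewed on day 4, in RPMI with 10% serum, and each group had 4 libraries. The extraction note in the labels speaks instead of RNA taken some days after a sort, and the treatment description was followed here.

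The mevalonate pathway turns acetyl-CoA into isoprenoid units, from which cells build cholesterol, dolichol, ubiquinone and the lipid anchors of prenylated proteins. Its genes are known as targets of the SREBP transcription factors, which are held in the endoplasmic reticulum when membranes are rich in sterols and are released when sterols fall. The route branches at farnesyl diphosphate: squalene synthase commits it to sterols, while geranylgeranyl diphosphate synthase commits it to prenyl groups for proteins and other isoprenoids.

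The members lie on 7 chromosomes of GRCh38 (GENCODE v29 positions), and all are protein-coding. The entry enzymes are ACAT2 (ENSG00000120437, chr6:159760328-159779055, plus strand), cytosolic acetoacetyl-CoA thiolase, and HMGCS1 (ENSG00000112972, chr5:43289395-43313512, minus strand), cytosolic HMG-CoA synthase. The phosphorylating and decarboxylating enzymes are MVK (ENSG00000110921, chr12:109573255-109598117, plus strand), mevalonate kinase, PMVK (ENSG00000163344, chr1:154924734-154936991, minus strand), phosphomevalonate kinase, and MVD (ENSG00000167508, chr16:88651935-88663161, minus strand), diphosphomevalonate decarboxylase. The isomerase and the prenyl chain builder are IDI1 (ENSG00000067064, chr10:1039152-1049170, minus strand), isopentenyl diphosphate isomerase, and FDPS (ENSG00000160752, chr1:155308748-155320666, plus strand), farnesyl diphosphate synthase. The branch enzymes are FDFT1 (ENSG00000079459, chr8:11795573-11839309, plus strand), squalene synthase, and GGPS1 (ENSG00000152904, chr1:235327350-235344532, plus strand), geranylgeranyl diphosphate synthase.

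Reads of some members cannot be told apart from those of other genes. Of their 31-base words, transcripts of ACAT2 shared 50.27% with other genes (chiefly SOD2-OT1), GGPS1 43.29% (chiefly TBCE) and FDPS 23.32% (chiefly RUSC1-AS1), so the levels of these 3 are uncertain. The share was 16.33% for IDI1, 16.3% for HMGCS1, 4.74% for FDFT1, 4.28% for MVK, 2.75% for MVD and 0% for PMVK. SOD2-OT1 averaged 4.03 normalised counts over all libraries and differed by -0.21 ± 0.53 (log2, SE; limma adjusted p = 0.844) between Combo and DMSO. TCP1, which overlaps ACAT2 on the other strand, differed by 0.01 ± 0.11 (limma adjusted p = 0.97) between these groups. TBCE, which overlaps GGPS1 on the same strand, differed by -0.18 ± 0.08 (limma adjusted p = 0.149). ARID4B, which overlaps GGPS1 on the other strand, fell with Combo by 0.44 on the log2 scale (limma adjusted p = 0.00299). MMAB, which overlaps MVK on the other strand, fell with Combo by 0.59 on the log2 scale (limma adjusted p = 0.000617).

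Upstream sequences are shown for members that fell together and, for contrast, for GGPS1, which did not pass the test in any comparison. RefSeq promoter windows (GRCh38.p14), cut to the 250 bases before the start, were found for 7 of 9 members, in 12 windows. Only the stretches outside annotated exons are printed, each read 5′ to 3′ on the gene's strand. Capitals mark CCAAT or its reverse complement ATTGG, the box bound by NF-Y, a factor known to act beside SREBP at sterol genes.
HMGCS1, chr5:43313513-43313662, minus strand: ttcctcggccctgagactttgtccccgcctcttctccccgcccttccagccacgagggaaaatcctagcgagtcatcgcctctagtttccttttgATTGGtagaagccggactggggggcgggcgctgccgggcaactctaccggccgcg
MVD, chr16:88663162-88663297, minus strand: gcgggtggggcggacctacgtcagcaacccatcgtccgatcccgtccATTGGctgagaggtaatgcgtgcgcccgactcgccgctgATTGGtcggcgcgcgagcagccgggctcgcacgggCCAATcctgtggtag
IDI1, chr10:1049171-1049369, minus strand: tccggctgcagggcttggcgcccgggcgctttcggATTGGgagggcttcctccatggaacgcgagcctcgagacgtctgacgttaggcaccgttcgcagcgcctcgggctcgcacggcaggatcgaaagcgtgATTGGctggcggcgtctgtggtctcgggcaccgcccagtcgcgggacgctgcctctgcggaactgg
FDPS, chr1:155308616-155308747, plus strand: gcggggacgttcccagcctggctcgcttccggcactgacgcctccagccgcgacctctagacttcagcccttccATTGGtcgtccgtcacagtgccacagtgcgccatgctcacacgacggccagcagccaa
GGPS1, chr1:235326969-235327159, plus strand: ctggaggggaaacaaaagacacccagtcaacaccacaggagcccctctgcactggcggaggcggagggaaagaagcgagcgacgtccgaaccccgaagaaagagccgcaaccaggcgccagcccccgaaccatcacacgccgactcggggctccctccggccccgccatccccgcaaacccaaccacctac
GGPS1, another window, chr1:235328320-235328398, plus strand: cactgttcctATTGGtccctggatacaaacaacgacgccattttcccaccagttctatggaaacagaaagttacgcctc
The CCAAT box (either strand) was in a window of all 5 falling members that matched, namely HMGCS1, MVK, MVD, IDI1 and FDPS, with 5 boxes for MVK and 3 each for MVD and FDPS over the full 250 bases. The windows printed for HMGCS1 and IDI1 were ones that hold the box, while another window of HMGCS1 and another of IDI1 hold none. The box is common: 37% of 27305 genes and 32.01% of 35116 windows held it. PMVK had none, and GGPS1 had 1 box in 1 of its 3 windows, and a window without and the window with it are printed. The core of the sterol regulatory element, TCACNCCAC, was in none of the 12 member windows on either strand, and in 1.088% of all genes. The GC box GGGCGG was in a window of all 7 matched members and of 46.24% of genes. Such matches are letters in a window and do not show binding. A lack of these exact letters within 250 bases does not show that a site is absent, since variants were not searched.

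The 16 libraries held an estimated 20700000 to 27300000 reads each, and their normalised counts summed to 22400000 to 24100000. All 10 myeloid markers chosen for the line were present in every library, but several moved with treatment. Over all genes, 16% were called in either direction with Combo, 6.25% with iDOT1L and 3.35% with iEZH2. With Combo 2 rose, LYZ, a lysozyme of monocytic cells, by 2.65 ± 0.22 (limma adjusted p = 7.9e-07) and MPO, the myeloperoxidase, by 2.61 ± 0.23 (limma adjusted p = 1.34e-06), and 2 fell, ITGAM, an integrin of mature myeloid cells, by -2.17 ± 0.34 (limma adjusted p = 0.000333) and FLT3, a receptor kinase of progenitors, by -1.41 ± 0.14 (limma adjusted p = 1.23e-06). With iDOT1L the same 4 passed, MPO by 2.55 ± 0.23 (limma adjusted p = 7.43e-06), LYZ by 1.85 ± 0.22 (limma adjusted p = 6.79e-05), ITGAM by -1.29 ± 0.34 (limma adjusted p = 0.0311) and FLT3 by -0.61 ± 0.14 (limma adjusted p = 0.0105). The iDOT1L call of ITGAM was lost without iDOT1L replicate 2, 3 or 4 or DMSO replicate 1, 3 or 4 (limma adjusted p 0.0642 to 0.0954). With iEZH2 only FLT3 passed, by -0.82 ± 0.14 (limma adjusted p = 0.00232), and ITGAM also passed without iEZH2 replicate 1 (limma adjusted p = 0.0097). With the replicate block 2 fell and 4 rose with iDOT1L, and 3 fell with iEZH2, against 6.53%, 5.69% and 5.89% of all genes. The summed level of 8 markers of other cell types was 251 to 357 in iDOT1L, 135 to 306 in iEZH2, 299.6 to 397 in Combo and 143 to 236 in DMSO, against 29620 to 52910 for the myeloid list over all libraries. Of those 8 markers, MS4A1 was at 0 in 6 libraries and CD3D in 1, and 2 rose with Combo, COL1A1 by 1.68 ± 0.38 (limma adjusted p = 0.00562) and CD79A by 1.00 ± 0.27 (limma adjusted p = 0.0142). With iDOT1L 1 of the 8 rose (2 with the replicate block), and with iEZH2 none passed, with 1 at an unadjusted limma p under 0.05. Of all 22331 genes, 3511 had an unadjusted limma p under 0.05 with iEZH2. Of all genes 7.22% rose with Combo and 3.08% with iDOT1L (5.69% with the replicate block). The CD79A call with Combo was lost without Combo replicate 1 (limma adjusted p = 0.0547) or 3 (0.0545). The part of either marker list in the results was not tested. Replicate 2 stood apart in this pathway, and departures shared by replicate number were seen beyond it, though not for replicate 2 alone. It was the lowest library in all 28 combinations of a group with one of ACAT2, HMGCS1, MVK, MVD, IDI1, FDPS and FDFT1. There it lay 0.19 to 0.75 below the mean of the other libraries of the group on the log2 scale. Over 12270 genes, with group means taken away, the replicate 2 libraries of different groups correlated at 0.394 to 0.581, so the departure was not particular to these genes. Replicate 1 libraries correlated at 0.447 to 0.639 among iDOT1L, iEZH2 and DMSO, and at 0.0603 to 0.102 with Combo. Those of replicate 4 correlated at 0.201 to 0.331 over all groups. Replicate 2 also had the lowest share of EEF1A1, the most abundant gene, in each group (3.18% to 3.48%, against 3.36% to 4.22% in the other libraries). Counts of members are therefore given with and without it. The labels do not say whether replicates were separate cultures, so p-values measure the spread between these libraries, which may be technical.

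Both entry enzymes had their highest means in DMSO and their lowest in Combo. HMGCS1 had 5600.5, 2785, 4204 and 4345 normalised counts in iDOT1L replicates 1 to 4, 4497, 2266, 2973 and 2950.3 in iEZH2, 3128, 1756, 2156 and 2309 in Combo and 7589.9, 4874, 7489 and 6952 in DMSO. All Combo and all iEZH2 libraries lay below all DMSO libraries, while iDOT1L replicate 1 lay above DMSO replicate 2. Group means were 4234 ± 1152 in iDOT1L, 3172 ± 943 in iEZH2, 2337 ± 576 in Combo and 6726 ± 1266 in DMSO (SD, n = 4 each). ACAT2 had 2838, 2118, 2648 and 2784 normalised counts in iDOT1L replicates 1 to 4, 2109.8, 1594, 2059 and 2052 in iEZH2, 1942, 1488, 1579 and 1812 in Combo and 3426, 2781, 3499.7 and 3532 in DMSO. The iEZH2 and Combo libraries overlapped each other and lay below all others, while iDOT1L replicates 1 and 4 lay above DMSO replicate 2. In these bulk samples, fewer cells of a type and less RNA per cell cannot be told apart.

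Of the enzymes that carry mevalonate to isopentenyl diphosphate, the kinase MVK and the decarboxylase MVD were low in iEZH2 and Combo, and the middle enzyme PMVK was not. MVK had 1029, 835, 964 and 968 normalised counts in iDOT1L replicates 1 to 4, 996, 571, 824 and 631 in iEZH2, 657, 513, 526 and 580.3 in Combo and 1169, 1019.5, 1322 and 1247 in DMSO. Combo libraries lay below all DMSO and all iDOT1L libraries, and the iEZH2 libraries spread from near the Combo level to near the DMSO level without reaching it. Only replicate 1 of iDOT1L lay above DMSO replicate 2. MVD had 1339, 898, 1339 and 1374 normalised counts in iDOT1L replicates 1 to 4, 1023, 760.4, 964 and 1018 in iEZH2, 973, 719.5, 929.9 and 853 in Combo and 1594, 1192, 1863 and 1629 in DMSO. Every iEZH2 and Combo library was below every DMSO library, with DMSO replicate 2 the closest, and iDOT1L overlapped DMSO. PMVK had 844, 1126, 1056 and 1001 normalised counts in iDOT1L replicates 1 to 4, 1106, 1174, 1222 and 1142 in iEZH2, 1168, 1006, 1084 and 1186 in Combo and 852, 1086, 944 and 959 in DMSO. Its iEZH2 libraries all lay above its DMSO libraries, by a narrow margin, and the iDOT1L and Combo libraries overlapped DMSO.

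IDI1 and FDPS, which interconvert the isoprene units and join them to farnesyl diphosphate, separated every treatment from DMSO. IDI1 had 3026, 2134, 2815 and 2854 normalised counts in iDOT1L replicates 1 to 4, 2596, 1823, 2174 and 2107 in iEZH2, 2109, 1515, 1739 and 1775 in Combo and 3747, 3151, 3939 and 3872 in DMSO. No treated library reached the lowest DMSO library, and Combo had the lowest mean. FDPS had 5124, 4476, 5138 and 5561 normalised counts in iDOT1L replicates 1 to 4, 5409, 4459, 5450.3 and 5174 in iEZH2, 4836, 3494, 4163 and 4479.6 in Combo and 7203, 6148, 8130.4 and 8182 in DMSO. Its iDOT1L and iEZH2 libraries covered almost the same range, and all 12 treated libraries lay below all DMSO libraries.

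At the branch, FDFT1 had its lowest mean in Combo, and GGPS1 stayed within a narrow range. FDFT1 had 5198, 3702, 4414 and 4818 normalised counts in iDOT1L replicates 1 to 4, 4264, 3021, 3497 and 3748 in iEZH2, 3658, 2570.3, 2933 and 3189 in Combo and 6135, 4592, 6024 and 5962 in DMSO. All Combo and iEZH2 libraries lay below all DMSO libraries, and iDOT1L overlapped DMSO. GGPS1 had 858, 857, 852 and 870.03 normalised counts in iDOT1L replicates 1 to 4, 958, 895, 801 and 816 in iEZH2, 897, 994, 924 and 876 in Combo and 834, 913, 840.2 and 816 in DMSO. Its values stayed between 801 and 994 in all 16 libraries, and every group overlapped DMSO.

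**Figure D1:**
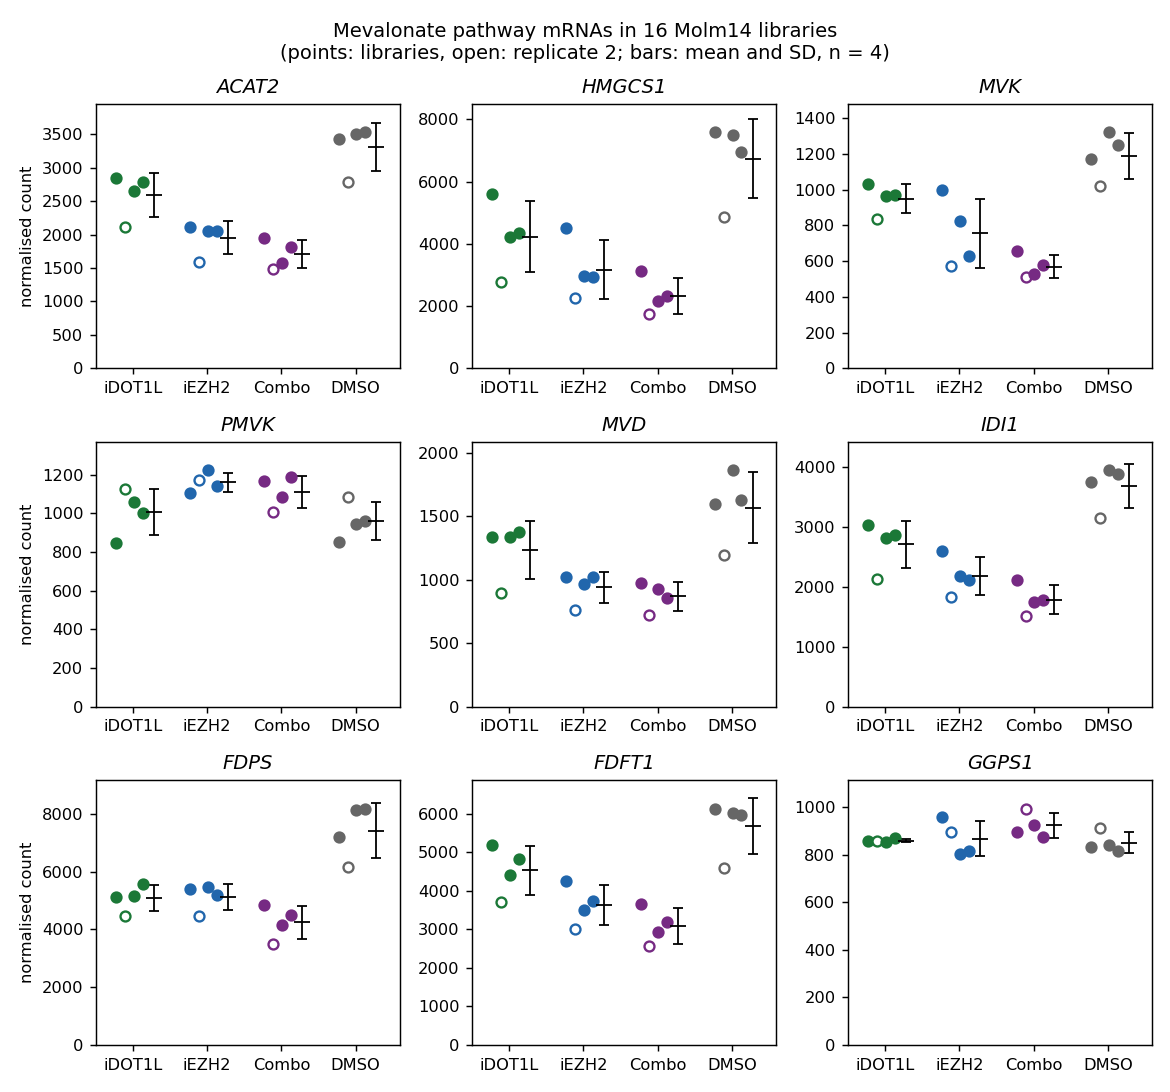
Normalised counts (linear axis from 0) of each member in the 16 libraries, in iDOT1L, iEZH2, Combo and DMSO from left to right; points are libraries (open for replicate 2) and bars give mean and SD (n = 4). HMGCS1 averaged 2337 in Combo and 6726 in DMSO, while GGPS1 stayed between 801 and 994 throughout, and replicate 2 was the lowest library of each group in 7 of the 9 panels.

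Each treatment was compared with DMSO to ask how the inhibitors act alone and together, and these comparisons share the same 4 DMSO libraries, so their values stand side by side and are not independent. Fold changes are differences of group means of log2(normalised count + 1) with their SE. They come from limma fitted over 22331 genes, with Benjamini-Hochberg adjustment over all of them and a threshold of 0.05.

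With both inhibitors, 7 of 9 members fell and none rose, against 8.8% of all genes that fell, 7.22% that rose and 16% called in either direction. The libraries of the same 7 did not overlap, all Combo below all DMSO, as for 10.3% of all genes. Those 7 were ACAT2, HMGCS1, MVK, MVD, IDI1, FDPS and FDFT1, while PMVK and GGPS1 did not pass the test. The median over the 9 members was -0.88 on the log2 scale, and over all genes 0.03. HMGCS1 changed the most, by -1.53 ± 0.23 (limma adjusted p = 0.000267), so its mRNA fell by 65.5%. MVK changed by -1.06 ± 0.14 (limma adjusted p = 3.74e-05), IDI1 by -1.05 ± 0.13 (limma adjusted p = 1.05e-05) and ACAT2 by -0.96 ± 0.12 (limma adjusted p = 1.52e-05). The smallest of the 7 falls were those of squalene synthase, the decarboxylase and farnesyl diphosphate synthase. FDFT1 changed by -0.88 ± 0.13 (limma adjusted p = 9.89e-05), MVD by -0.84 ± 0.15 (limma adjusted p = 0.000681) and FDPS by -0.81 ± 0.11 (limma adjusted p = 4.34e-05). PMVK differed by 0.21 ± 0.10 (limma adjusted p = 0.159) and GGPS1 by 0.12 ± 0.08 (limma adjusted p = 0.374). All 7 falls held when any library of Combo or DMSO was left out and when replicate 2 was left out of every group. In that last fit PMVK was called higher (0.32, limma adjusted p = 0.0453), and it was also called with quantile normalisation (0.29, limma adjusted p = 0.0474).

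With the EZH2 inhibitor alone, the same 7 members fell and none rose, against 2.05% of all genes that fell, 1.3% that rose and 3.35% called in either direction. For these 7, all iEZH2 libraries lay below all DMSO libraries, as for 4.95% of all genes, and for PMVK all lay above, as for 3.67%. The falls ran from 0.53 for FDPS to 1.11 for HMGCS1 on the log2 scale, with a median of -0.68 over the 9 members and 0.02 over all genes. HMGCS1 changed by -1.11 ± 0.23 (limma adjusted p = 0.0148), IDI1 by -0.76 ± 0.13 (limma adjusted p = 0.00188) and ACAT2 by -0.76 ± 0.12 (limma adjusted p = 0.00129). MVD changed by -0.73 ± 0.15 (limma adjusted p = 0.0101) and MVK by -0.68 ± 0.14 (limma adjusted p = 0.0107). The enzymes next to the branch had the smallest of the 7 falls. FDFT1 changed by -0.65 ± 0.13 (limma adjusted p = 0.00813) and FDPS by -0.53 ± 0.11 (limma adjusted p = 0.0101). PMVK differed by 0.28 ± 0.10 (limma adjusted p = 0.145). GGPS1 differed by 0.03 ± 0.08 (limma adjusted p = 0.923). The count was 7 again without replicate 2 in every group and 6 or 7 when single libraries were left out. HMGCS1 missed the threshold without iEZH2 replicate 2 (limma adjusted p = 0.0509), DMSO replicate 1 (0.0542) or DMSO replicate 3 (0.0526). FDPS missed it with quantile normalisation (limma adjusted p = 0.051), and MVK with the iEZH2 and DMSO libraries fitted alone (0.0503).

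With the DOT1L inhibitor alone, FDPS and IDI1 fell and no member rose, so 2 of 9 were called, against 3.17% of all genes that fell, 3.08% that rose and 6.25% called in either direction. For both, all iDOT1L libraries lay below all DMSO libraries, as for 6.42% of all genes. FDPS changed by -0.54 ± 0.11 (limma adjusted p = 0.00458) and IDI1 by -0.45 ± 0.13 (limma adjusted p = 0.0383). The other five that fell with Combo had negative values that did not pass: HMGCS1 -0.69 ± 0.23 (limma adjusted p = 0.107), ACAT2 -0.35 ± 0.12 (limma adjusted p = 0.0927), MVD -0.35 ± 0.15 (limma adjusted p = 0.233), FDFT1 -0.33 ± 0.13 (limma adjusted p = 0.175) and MVK -0.32 ± 0.14 (limma adjusted p = 0.237). PMVK differed by 0.07 ± 0.10 (limma adjusted p = 0.797) and GGPS1 by 0.02 ± 0.08 (limma adjusted p = 0.952). The median over the 9 members was -0.35, and over all genes 0.01. In the fit with the replicate number as a block, 6 members fell, against 6.53% of all genes: ACAT2, HMGCS1, MVD and FDFT1 were added (limma adjusted p = 0.000684, 1.78e-05, 0.0041 and 0.000516), and MVK stayed just outside (0.0521). Without replicate 2 in every group, 4 fell: IDI1, FDPS, ACAT2 (-0.34, limma adjusted p = 0.0316) and HMGCS1 (-0.65, limma adjusted p = 0.0449). IDI1 missed the threshold without iDOT1L replicate 2, 3 or 4 or DMSO replicate 1, 3 or 4 (limma adjusted p 0.0583 to 0.136), and ACAT2 passed without DMSO replicate 2 (-0.43, limma adjusted p = 0.045). IDI1 also missed it with quantile normalisation (limma adjusted p = 0.0945).

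**Figure D2:**
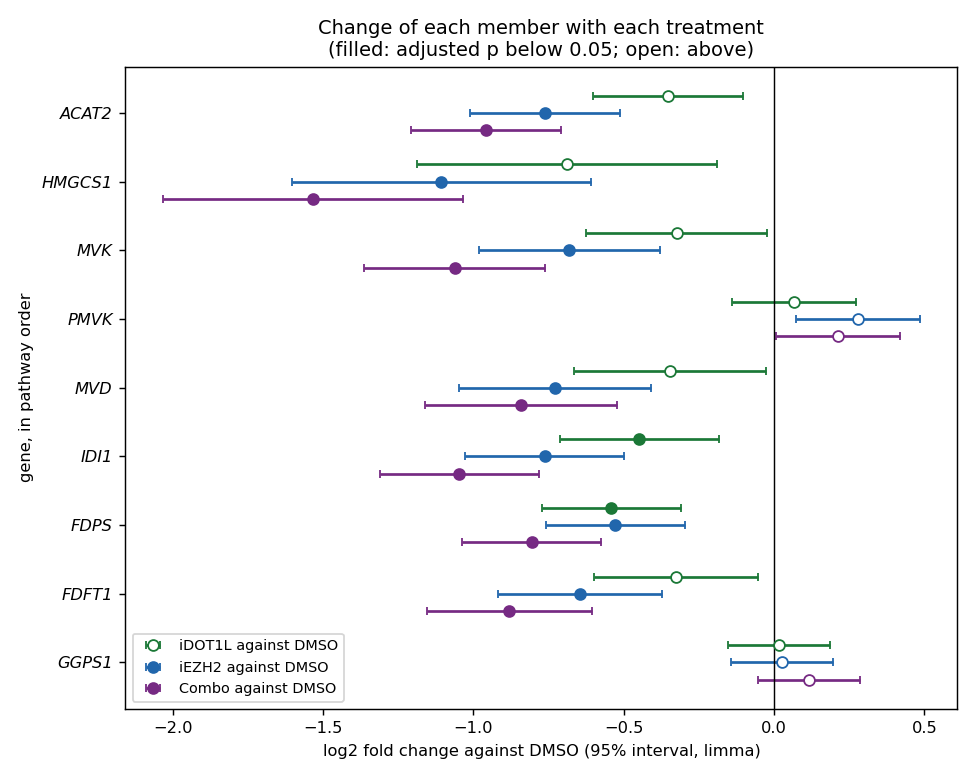
Log2 fold change of each member against DMSO with its 95% interval from limma, for iDOT1L, iEZH2 and Combo from top to bottom within each gene; filled points have an adjusted p below 0.05. The points of 7 genes lie left of 0 and reach -1.53 for HMGCS1 with Combo, and those of PMVK and GGPS1 lie between 0.02 and 0.28.

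Adding the EZH2 inhibitor to the DOT1L inhibitor lowered 4 of 9 members, against 1.48% of all genes that fell, 1.11% that rose and 2.58% called in either direction, and raised none. MVK changed by -0.74 ± 0.14 (limma adjusted p = 0.0095) between Combo and iDOT1L, ACAT2 by -0.61 ± 0.12 (limma adjusted p = 0.0101), IDI1 by -0.60 ± 0.13 (limma adjusted p = 0.0161) and FDFT1 by -0.55 ± 0.13 (limma adjusted p = 0.028). HMGCS1 differed by -0.84 ± 0.23 (limma adjusted p = 0.0707), MVD by -0.50 ± 0.15 (limma adjusted p = 0.0904) and FDPS by -0.26 ± 0.11 (limma adjusted p = 0.231). PMVK differed by 0.15 ± 0.10 (limma adjusted p = 0.482) and GGPS1 by 0.10 ± 0.08 (limma adjusted p = 0.577). Without replicate 2 in every group 6 members fell, HMGCS1 (-0.90, limma adjusted p = 0.0146) and MVD (-0.56, limma adjusted p = 0.00575) being the additions. IDI1 missed the threshold without iDOT1L replicate 1 or 3 or Combo replicate 3 (limma adjusted p 0.0502 to 0.068), and FDFT1 without iDOT1L replicate 1, 3 or 4 or Combo replicate 2, 3 or 4 (limma adjusted p 0.0635 to 0.109). HMGCS1 passed without iDOT1L replicate 2 (limma adjusted p = 0.0241) or Combo replicate 1 (0.0468), and MVD without iDOT1L replicate 2 (0.0215). FDFT1 also missed the threshold with quantile normalisation (limma adjusted p = 0.0839), and HMGCS1 passed when only genes with a mean of at least 10 were tested (0.0453).

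Adding the DOT1L inhibitor to the EZH2 inhibitor gave no member past the threshold in limma, against 1.72% of all genes that fell, 2.08% that rose and 3.81% in either direction. Values between Combo and iEZH2 were negative for 8 of 9 members, from -0.43 for HMGCS1 to -0.07 for PMVK, and 0.09 for GGPS1. Unadjusted limma p-values were under 0.05 for 3 members, MVK, IDI1 and FDPS, and no alternative without a block called any. Of all 22331 genes, 3438 had an unadjusted limma p under 0.05 between Combo and iEZH2. The 95% interval of the difference was -0.93 to 0.07 for HMGCS1 and -0.68 to -0.08 for MVK.

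Between the single treatments, ACAT2 was higher in iDOT1L than in iEZH2, by 0.41 ± 0.12 (limma adjusted p = 0.0426), and no other member passed, against 3.88% of all genes that were higher, 3.06% that were lower and 6.94% called in either direction. The other five members that fell with iEZH2 by over 0.6 had positive values of 0.31 to 0.42, and FDPS had -0.01 (95% interval -0.24 to 0.22). With the replicate number as a block, 6 members were higher in iDOT1L, against 7.35% of all genes, namely ACAT2, HMGCS1, MVK, MVD, IDI1 and FDFT1 (limma adjusted p 0.000162 to 0.0274). The call of ACAT2 was lost without iDOT1L replicate 1, 3 or 4 or iEZH2 replicate 2 or 3 (limma adjusted p 0.0723 to 0.158). Without replicate 2 in every group, ACAT2 and MVD were called, MVD with 0.43, limma adjusted p = 0.0116. Without iDOT1L replicate 2 alone, MVD (limma adjusted p = 0.0293) and IDI1 (0.0424) also passed, as MVK did without iEZH2 replicate 1 (0.0242).

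Whether the change with both inhibitors departs from the sum of the single changes was tested as an interaction, positive where Combo lies above that sum. No member was called, nor any of the 22331 genes (0%), with 848 genes and no member at an unadjusted limma p under 0.05. HMGCS1 had a Combo change of -1.53 and a sum of single changes of -1.80, an interaction of 0.26 ± 0.33 (95% interval -0.44 to 0.97). FDPS had -0.81 against a sum of -1.07 (0.26 ± 0.16, -0.06 to 0.59), and MVK had -1.06 against -1.01 (-0.06 ± 0.20, -0.48 to 0.37). The interaction of the 9 members ran from -0.13 for PMVK to 0.26 for FDPS, and all 9 intervals held 0. For each of the 7 falling genes the interval also held a departure as large as its iDOT1L change.

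**Figure D3:**
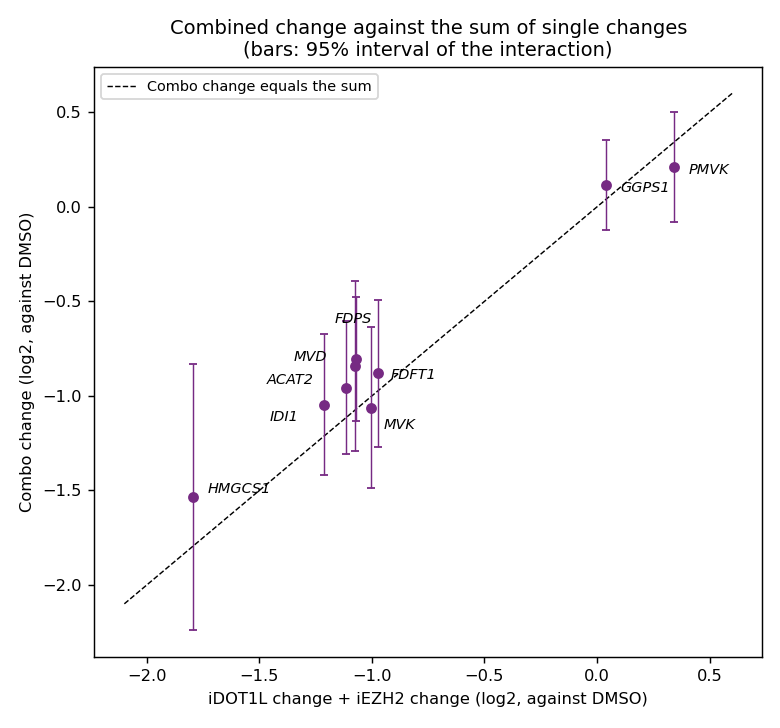
Combo change of each member (vertical axis) against the sum of its iDOT1L and iEZH2 changes (horizontal axis), both log2 against DMSO, with the 95% interval of the interaction as bars and equality as the dashed line. All 9 bars cross the line, and 6 of the 7 falling genes lie above it, MVK being the exception.

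The 7 falling members also varied together inside the groups. Over 16 libraries the 21 pairs among them had Pearson correlations of log2 values between 0.876 and 0.990, and between 0.671 and 0.978 after the group means were taken away. PMVK correlated with those 7 at -0.70 to -0.47 and GGPS1 at -0.59 to -0.46, and with each other at 0.12. These are descriptions of 16 libraries that share groups, replicate numbers and depth. The 7 were picked because they fell in these libraries, so high values over all 16 were partly set by that choice. Inside the groups, replicate 2 was the lowest library for all 7, and its departure was not particular to them.

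**Figure D4:**
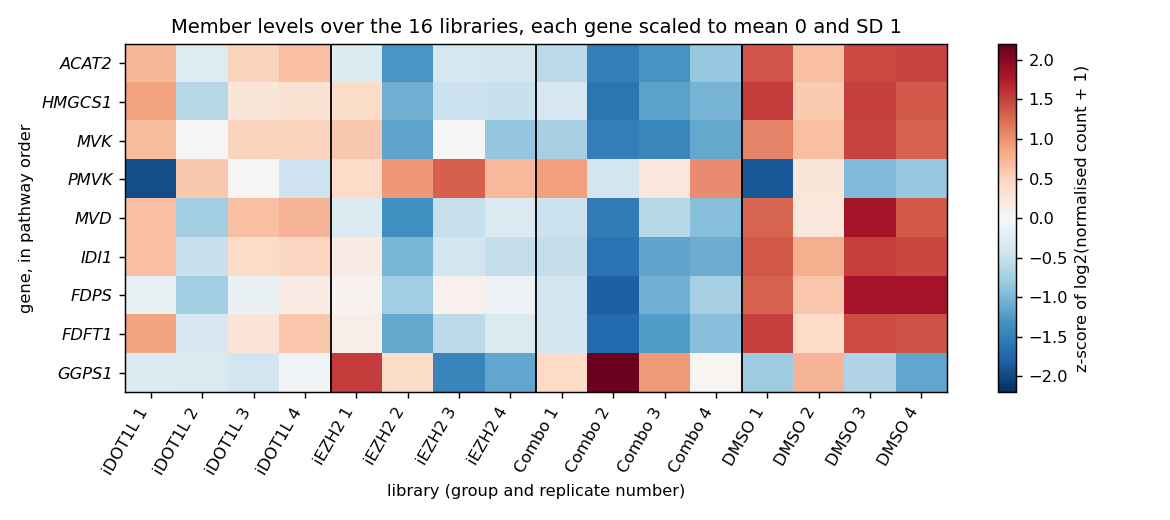
Level of each member (rows, in pathway order) in each library (columns, by group and replicate), as a z-score of log2(normalised count + 1) within the gene; red is above and blue below the gene's own mean of 16 libraries. The 7 falling genes share 1 column pattern, darkest blue in Combo replicate 2, while PMVK and GGPS1 do not.

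The 10 protein-coding genes whose log2 values over the 16 libraries lay closest to the mean z-score of the 9 members were taken from 11184 candidates with a mean of at least 50 normalised counts. They were CYP51A1 (Pearson r = 0.978), INSIG1 (0.977), RNASET2 (0.977), C6orf223 (0.975), CCDC28B (0.972), JUND (0.971), PGK1 (0.970), TMSB4X (0.968), FADS2 (0.968) and MSMO1 (0.965). After removal of group means their r was 0.856 to 0.941. CYP51A1 and MSMO1 encode enzymes of later sterol synthesis, INSIG1 the protein that retains SREBP in the endoplasmic reticulum, and FADS2 a fatty acid desaturase. The others are no members of any list used here: PGK1 is a glycolytic kinase, JUND an AP-1 subunit and TMSB4X an actin-binding peptide. CCDC28B shares 21.41% of its words with other genes, so its level is uncertain.

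Downstream of squalene, most sterol enzymes fell with Combo and with iEZH2. Of 12 such genes 11 fell and none rose with Combo (median -0.74), 9 fell with iEZH2 (median -0.58) and 2 with iDOT1L (median -0.35). Over all genes, 8.8%, 2.05% and 3.17% fell in these comparisons. With the replicate block 10 fell with iEZH2 and 9 with iDOT1L, against 5.89% and 6.53% of all genes in that fit. Leaving out single libraries gave 9 to 11, 4 to 10 and 2 to 4. The iEZH2 count was 4 without iEZH2 replicate 2 or DMSO replicate 3 or 4 and 5 without iEZH2 replicate 3 or 4 or DMSO replicate 1, and the iDOT1L count was 4 without iDOT1L replicate 1. Leaving out replicate 2 of every group gave 10, 8 and 3. DHCR7, a reductase of the last steps, changed by -1.54 ± 0.11 (limma adjusted p = 5.06e-08) with Combo, LSS, lanosterol synthase, by -1.28 ± 0.15 (limma adjusted p = 7.99e-06) and CYP51A1, lanosterol demethylase, by -1.18 ± 0.16 (limma adjusted p = 4.95e-05). CYP51A1 shares 83% of its words with other genes and its level is uncertain. The gene not called with Combo was LBR, a nuclear envelope protein with sterol reductase activity, at -0.09 ± 0.07 (limma adjusted p = 0.49), named after its value was seen.

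Among SREBP regulators and genes of sterol uptake or export, 16 of 17 were in the table. With Combo 10 fell and 1 rose (median -0.58), with iEZH2 4 fell and none rose (median -0.22), and with iDOT1L none fell and 1 rose (median -0.13, and 4 at an unadjusted limma p under 0.05). Of all 22331 genes, 3972 had an unadjusted limma p under 0.05 with iDOT1L. The shares over all genes were 8.8% that fell and 7.22% that rose with Combo, 2.05% and 1.3% with iEZH2, and 3.17% and 3.08% with iDOT1L. With the replicate block 7 fell with iEZH2, and 4 fell and 1 rose with iDOT1L. The shares over all genes in that fit were 5.89%, 6.53% and 5.69%, in the same order. Leaving out single libraries gave 6 to 10 falls with Combo, 2 to 5 with iEZH2 and 0 to 1 with iDOT1L. The Combo count was 6 without Combo replicate 4 or DMSO replicate 3, the iEZH2 count was 2 without iEZH2 replicate 2 or DMSO replicate 1 or 3, and the iDOT1L count was 1 without iDOT1L replicate 1 or DMSO replicate 2. Leaving out replicate 2 of every group gave 10, 4 and 1. INSIG1 changed by -1.69 ± 0.22 (limma adjusted p = 4e-05) with Combo, SREBF1 by -0.69 ± 0.10 (limma adjusted p = 7.38e-05) and SREBF2 by -0.68 ± 0.11 (limma adjusted p = 0.000263). With iEZH2, SREBF2, the SREBP gene best known for sterol targets, changed by -0.47 ± 0.11 (limma adjusted p = 0.0209) and SREBF1 by -0.42 ± 0.10 (limma adjusted p = 0.0246). Both of those calls were lost without iEZH2 replicate 2, DMSO replicate 1 or DMSO replicate 3, SREBF1 also without iEZH2 replicate 4 or DMSO replicate 4 and SREBF2 also without iEZH2 replicate 3 (limma adjusted p 0.0501 to 0.106). The gene that rose was ABCA1, a cholesterol exporter, by 1.10 ± 0.20 (limma adjusted p = 0.00085) with Combo and 0.81 ± 0.20 (limma adjusted p = 0.021) with iDOT1L, named after its values were seen. The iDOT1L call was lost without iDOT1L replicate 1 or 2 or DMSO replicate 3 or 4 (limma adjusted p 0.059 to 0.0723).

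Of 10 fatty acid genes known as SREBP targets, 6 fell with Combo (median -0.66), 4 with iEZH2 (median -0.37) and 3 with iDOT1L (median -0.36), and none rose. With the replicate block 6 fell with iEZH2 and 5 with iDOT1L, against 5.89% and 6.53% of all genes in that fit. Without the block, 8.8% of all genes fell with Combo, 2.05% with iEZH2 and 3.17% with iDOT1L. Leaving out single libraries gave 5 or 6, 2 to 5 (2 without DMSO replicate 3) and 2 or 3, and leaving out replicate 2 of every group gave 7, 4 and 3. SCD, stearoyl-CoA desaturase, changed by -1.81 ± 0.17 (limma adjusted p = 1.23e-06) with Combo, -1.05 ± 0.17 (limma adjusted p = 0.00184) with iEZH2 and -0.87 ± 0.17 (limma adjusted p = 0.00347) with iDOT1L. With Combo, FADS2 changed by -1.96 ± 0.28 (limma adjusted p = 0.000163), the desaturase FADS1 by -1.12 ± 0.15 (limma adjusted p = 4.34e-05), and ACLY, which supplies cytosolic acetyl-CoA, by -0.50 ± 0.08 (limma adjusted p = 0.000255).

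Of the genes that use isoprenoids outside sterol synthesis, 1 passed the test in a comparison with DMSO. Of 14 genes of prenylation, dolichol and ubiquinone synthesis, none was called with Combo or iEZH2 in limma (medians 0.09 and 0.10). In these comparisons 4 and 1 had an unadjusted limma p under 0.05, as did 6381 and 3511 of all 22331 genes. With the replicate block 2 rose with iEZH2 and 2 fell with iDOT1L, against 3.87% and 6.53% of all genes in that fit. Quantile normalisation gave 1 that rose with Combo. Without the block, 16% of all genes were called with Combo, 3.35% with iEZH2 and 6.25% with iDOT1L. Without the block 1 fell with iDOT1L (median -0.02), PDSS2, which builds the ubiquinone tail, by -0.36 ± 0.10 (limma adjusted p = 0.0455), and its call was lost without replicate 2 of every group (limma adjusted p = 0.0712) and without iDOT1L replicate 1, 3 or 4 or DMSO replicate 1, 2 or 4 (0.0956 to 0.133). RABGGTB, a subunit of the geranylgeranyl transferase for Rab proteins, differed by 0.34 ± 0.12 (limma adjusted p = 0.0623) with Combo, and PGGT1B by -0.31 ± 0.12 (limma adjusted p = 0.08). Leaving out single libraries gave at most 1 call in this list in each comparison with DMSO, and with Combo that 1 call came without Combo replicate 2 or DMSO replicate 3. Median values over all genes in the comparisons with DMSO were 0.03, 0.02 and 0.01 for Combo, iEZH2 and iDOT1L.

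**Figure D5:**
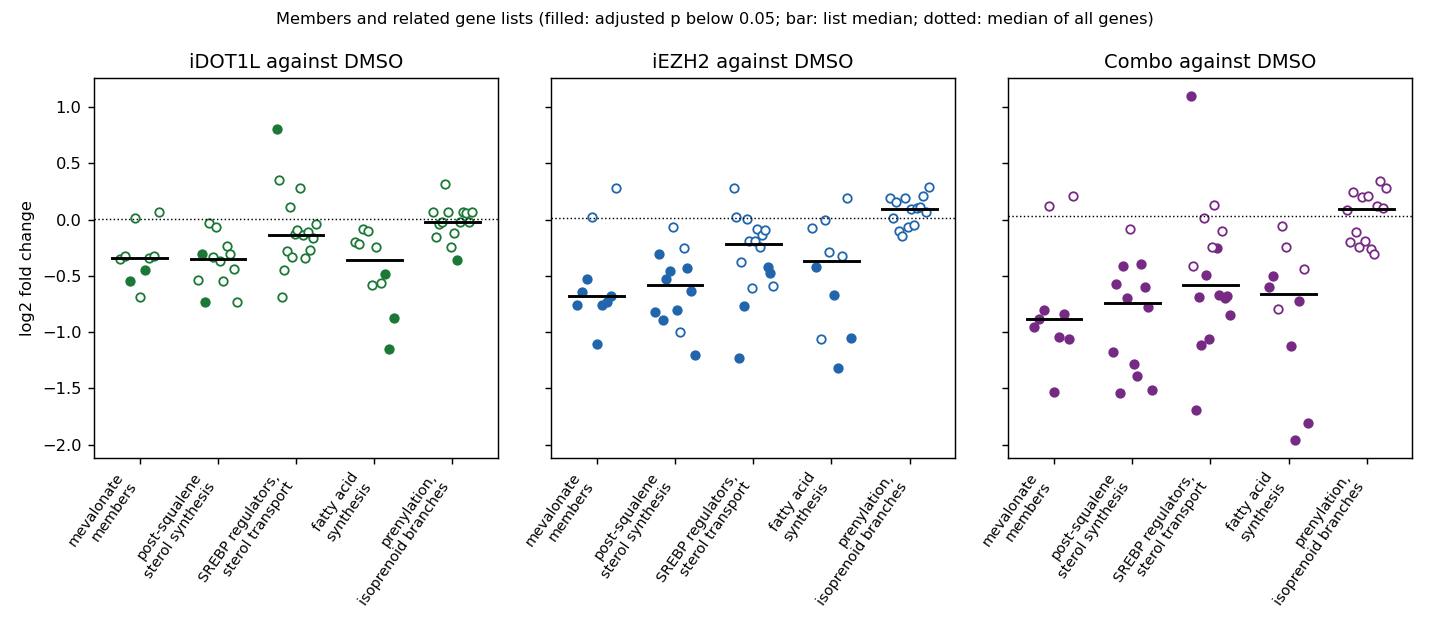
Log2 fold change against DMSO of the 9 members and of 4 related gene lists, for iDOT1L, iEZH2 and Combo from left to right; points are genes, filled where the adjusted p is below 0.05, bars are list medians and the dotted line is the median of all genes. The prenylation list lies around 0 (median 0.09 with Combo), and the members have a median of -0.88 with Combo.

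Paralogues that carry out the same reactions elsewhere did not pass the test against DMSO in limma, with 1 of 3 at an unadjusted p under 0.05 with iDOT1L and none with iEZH2 or Combo. Of all 22331 genes, 3972 had an unadjusted limma p under 0.05 with iDOT1L. ACAT1, the mitochondrial thiolase, differed by -0.30 ± 0.11 (limma adjusted p = 0.128) with iDOT1L, 0.16 ± 0.11 (limma adjusted p = 0.545) with iEZH2 and -0.11 ± 0.11 (limma adjusted p = 0.549) with Combo. IDI2, an isomerase paralogue known from muscle, had few counts. It shares 72.69% of its words with other genes and lay between 0 and 3.79 normalised counts. With the replicate block 1 of the 3, ACAT1, fell with iDOT1L (limma adjusted p = 0.0302), against 6.53% of all genes in that fit.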

How the data were processed

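RNA-seq of 16 Molm14 libraries was used, 4 per group. Per the submitters' processing notes, the authors used kallisto, DESeq2 and the hg38 build, with no versions. What was deposited is a log2 table, variance-stabilised and normalised by the authors, in which 6.28106 stands for a count of 0, as the values themselves show. Inverting that transformation exactly gave normalised counts for each library. No column of other samples was present. Of 22445 IDs 20784 matched GENCODE v29, and 1661 were kept by ID. Read totals are estimates: 65.0% to 67.7% of low values lay within 0.1 of a whole read, so whole reads were not recovered.

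The 22331 genes that exceeded 1 normalised count in 4 or more libraries entered limma 3.58.1 in R 4.3.3 on log2(normalised count + 1), with 4 group means, no block, 12 residual degrees of freedom, trend and robust moderation, and Benjamini-Hochberg adjustment per comparison. Since the table holds no counts, limma was the test used. The fitting step was tested on simulated data. Alternatives were other scalings, pseudocounts, filters, moderation, a replicate block and libraries left out. Named genes were the members, the 4 of each related list with the lowest adjusted p in Combo against DMSO, and the 10 closest genes by correlation; some genes that this rule names are not reported here. Members, lists and rules were chosen with earlier results of these data known. Word sharing used GENCODE v29 transcripts on either strand; the strand setting of the counting is not given.

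Residuals of same-numbered libraries were correlated over 12270 genes with a mean of at least 50. All were above 0.1 for iDOT1L with DMSO (lowest 0.109), for iEZH2 with DMSO (lowest 0.198) and for the single treatments with each other (lowest 0.113), so for those comparisons the report gives the blocked values that change a member's call, and the blocked counts of the lists. With a mean of at least 10 (15457 genes), replicate 3 was below 0.1 in each of these (0.0760, 0.0973 and 0.0388). What a replicate number means is not stated in the labels. The source names of same-numbered libraries share 1 ending in all groups, Combo included. The meaning of that ending is not stated either, and the main fit does not use it.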

Additional observations from a re-analysis of the deposited data

Results flagged for a closer look

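Single libraries lay far from the others of their group in 8 of 112 combinations of 28 genes with 4 groups; chance flags about 1 in 20. The value given is the gap to the nearest library divided by the range of the group, and was above Dixon's 95% limit for 4 libraries. Replicate 2 was the low library for ACAT2 in iEZH2 (0.901, 1594 normalised counts) and in DMSO (0.873, 2781), for MVD in iDOT1L (0.939, 898) and for FDFT1 in DMSO (0.901, 4592). For PDSS2, replicate 2 of iDOT1L was the high library (0.919, 626). For ACAT1, Combo replicate 4 (0.857, 1549) and DMSO replicate 1 (0.881, 1494) were the low libraries. For IDI2, near the detection limit, Combo replicate 3 was the high library (0.907, 3.59).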

How the results depend on the processing

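All 7 falls with Combo held their direction and call in every alternative run, and the 7 with iEZH2 held their direction. Over 1260 values of members under alternatives, 1182 kept direction and side of the threshold, 33 lost a call, 33 gained one and 12 changed sign; the cause was not tested. Median-of-ratios scaling gave factors of 1 and the main values. Members called lower with iDOT1L against DMSO (2) numbered 1 with quantile normalisation, 1 without trend and robust moderation, 6 with the replicate block and 4 without replicate 2 of every group (an alternative chosen after the data were seen). Members lower in Combo against iDOT1L (4) numbered 3 with quantile normalisation, 5 with a mean of at least 10, 2 without trend and robust moderation and 7 with the block, and in Combo against iEZH2 (0) 6 with the block. Members higher in iDOT1L than iEZH2 (1) numbered 0 with quantile normalisation, with only the groups compared and without trend and robust moderation, 6 with the block and 2 without replicate 2. Members higher with Combo against DMSO (0) numbered 1 with quantile normalisation and 1 without replicate 2. For the Combo comparisons the lowest same-number correlations, those of replicate 3, were 0.0362 to 0.0528, below 0.1. Those of replicate 2 were 0.394 to 0.481. In no comparison, with or without Combo, did every library correlate best with its own number, so that trait does not set the Combo comparisons apart. With the block 6 of 9 interaction intervals of members held 0 (9 without), and no gene was called. The others lay above 0: HMGCS1 (0.027 to 0.497), MVD (0.013 to 0.448) and FDPS (0.081 to 0.448). Of the prenylation list 3 fell and 2 rose with Combo with the block, against 13.3% and 11.3% of all genes. In the comparisons with every same-number correlation above 0.1, the block changed no member call beyond those given in the report.

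Genes called over the whole table were 2729, 2180 and 5499 with the block against DMSO (iDOT1L, iEZH2, Combo; 1396, 748 and 3579 without), 2240 for Combo against iDOT1L (577), 2136 for Combo against iEZH2 (850) and 3185 for iDOT1L against iEZH2 (1550). With only the groups compared they were 450 for iEZH2 against DMSO, 511 for Combo against iEZH2 and 1004 for iDOT1L against iEZH2. Without trend and robust moderation they were 481 for iEZH2 against DMSO, 294 for Combo against iDOT1L and 1 for the interaction. Quantile normalisation gave 252 lower and 291 higher genes for Combo against iDOT1L, where the main values were 330 and 247.

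With single libraries left out, members called lower were 1 to 3 (iDOT1L against DMSO), 6 to 7 (iEZH2 against DMSO), 7 to 7 (Combo against DMSO) and 2 to 6 (Combo against iDOT1L), and 0 to 3 were higher in iDOT1L than iEZH2. Genes were 915 to 1279, 409 to 1046 and 2642 to 3583 against DMSO, 199 to 567 for Combo against iDOT1L, 493 to 1349 for Combo against iEZH2, 964 to 1802 for iDOT1L against iEZH2 and 0 to 1 for the interaction.

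Values that changed sign were all uncalled. Outside single libraries they were PGGT1B with iDOT1L against DMSO (0.0162 with quantile normalisation, 0.0104 without replicate 2) and GGPS1 in iDOT1L against iEZH2 (0.0008 and 0.0076 in the same order). With single libraries left out, the ranges were -0.094 to 0.0544 (PGGT1B), -0.0101 to 0.145 (RABGGTB) and -0.0038 to 0.0502 (GGPS1) for iDOT1L against DMSO, -0.0232 to 0.0629 (GGPS1) and -0.1251 to 0.0079 (PDSS2) for iEZH2 against DMSO, and -0.0471 to 0.0389 (GGPS1) and -0.0785 to 0.0456 (FDPS) for iDOT1L against iEZH2. For the interaction they were -0.0023 to 0.1901 (FDFT1) and -0.1809 to 0.0864 (MVK).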
